A study of Arabidopsis thaliana with 12 samples.

Results

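The genes described here gave a much lower array signal in Arabidopsis thaliana plants that had been chilled and returned to warmth than in plants that had not been chilled. They were chosen by their intensities on the same arrays that are described below. A gene was taken where its probe names that gene alone and stood above 0 on all 12 arrays, where the control mean was at least 0.5, and where the recovered mean was at most 0.15 times the control mean. Of the 3439 probes, 692 name a single gene, 468 of these were above 0 on every array, and 314 of those had a control mean of at least 0.5. These 314 are called bright below, although 0.5 lies just under the median of every control array. The thresholds were met by 88 genes, and after 6 loci were left out 82 remained. Every difference between the groups that follows is therefore a description of chosen genes and no test of them.

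All plants were wild type of the ecotype Columbia 0. The 6 recovered samples came from plants that spent 24 h at 4 °C in medium light, which the labels call photoinhibitory, followed by 24 h at 20 °C in medium light. The 6 control samples came from plants grown at 20 °C in medium light. Total RNA of each sample was hybridized to an array, and each array gave 1 deposited intensity for each probe on a linear scale in arbitrary units. The labels name neither the tissue nor the origin of the replicates, so errors and p-values hold the variation among these samples alone, and that may be technical. No batch is labelled, and one aligned with the groups cannot be told apart from the treatment. In RNA of whole samples, fewer cells of a type and less RNA per cell cannot be told apart either. The number of arrays limits the precision.

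Light absorbed at a low temperature outpaces the enzymes that use its energy, and photosystem II is damaged faster than it is repaired; this is photoinhibition. On return to warmth the plastid rebuilds its complexes from proteins encoded in the nucleus and in the plastid itself. Plastid and mitochondrial transcripts are trimmed, spliced, edited and stabilized by nuclear-encoded RNA-binding proteins, among them the large pentatricopeptide repeat family, and their ribosomes and tRNAs carry modified bases placed by nuclear-encoded enzymes. The roles given below are general knowledge of these loci at the level of the family. The deposited data and the gene table give symbols and no descriptions, so the roles could not be checked against them.

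Most probes were dimmer on the recovered arrays, which bears on every value below. Over the 2409 probes above 0 on all arrays, the median ratio of recovered to control mean was 0.348. The median intensity of an array was 0.0971 to 0.128 on recovered and 0.536 to 0.569 on control arrays, while array totals were 3153 to 3267 on recovered and 3627 to 3745 on control arrays. Spots listed at 0 numbered 388 to 564 on recovered and 154 to 162 on control arrays. Among the 1620 such probes with a control mean of at least 0.5, named or not, 447 or 27.6% also had a ratio of at most 0.15, against 28.0% of the 314 single-gene probes. The share of single-gene probes that met both thresholds lay near the share over all bright probes.

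The 82 genes had recovered means from 0.0223 to 0.401 with a median of 0.0776, and control means from 0.504 to 13.9 with a median of 0.894. Their ratios ran from 0.0168 to 0.1498, with a median of 0.0887, against a median of 0.279 over the 314 bright single-gene probes. A ratio of at most 0.05 was found for 7 genes, one above 0.05 and up to 0.1 for 47, and a higher one for 28. The control mean was under 1 for 51 genes and 2 or more for only 3. The plot of group means shows the 82 genes below the line of 0.15, with 3 of them set apart by a control mean above 2.

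**Figure D1:**
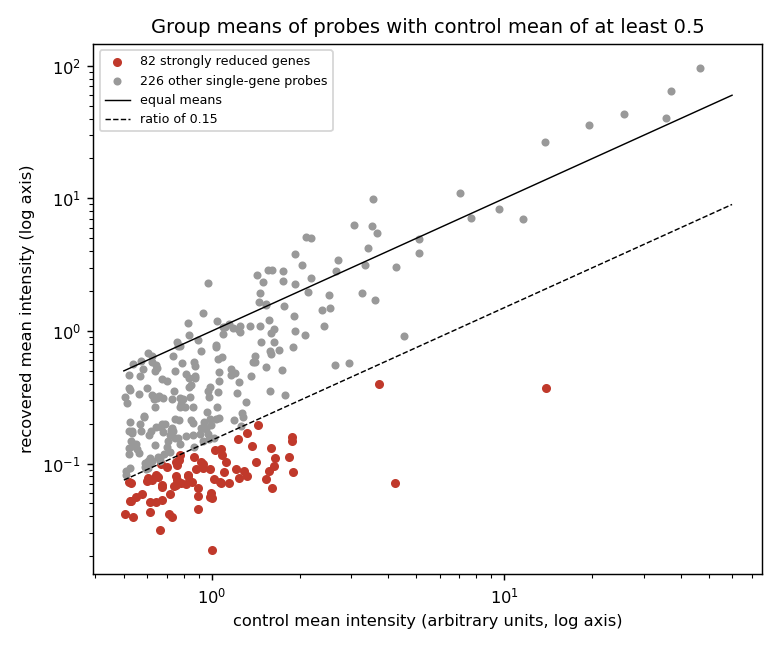
Mean intensity of the 6 recovered arrays (vertical, log axis, arbitrary units) against that of the 6 control arrays (horizontal, log axis) for single-gene probes with a control mean of at least 0.5, without the 6 loci left out. Each point is a probe; the 82 strongly reduced genes lie below the dashed line at a ratio of 0.15, and most of the others lie below the solid line of equal means.

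The rank of a gene among all probes of its own array does not depend on how the array was scaled. The genes were chosen by the same intensities, so a lower recovered rank is no independent support. The median percentile of the 82 genes was 38.5 to 42.8 on recovered arrays and 68.97 to 71.3 on control arrays. For the 314 bright single-gene probes, averaged over arrays, the median was 67.9 in recovered and 71.1 in control plants. Averaged over the arrays of a group, 69 of the 82 genes lay below the middle of the array in recovered plants and 7 did in control plants. On single arrays, 18 to 27 of the genes still lay above the array median in recovered plants, against 71 to 77 in control plants. These genes therefore stood in the upper middle of the control arrays and just below the middle of the recovered arrays, not at their bottom. The summed intensity of the 82 genes was 0.231 ± 0.0357% of the array total in recovered and 2.67 ± 0.0629% in control plants (SD, n = 6 each).

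**Figure D2:**
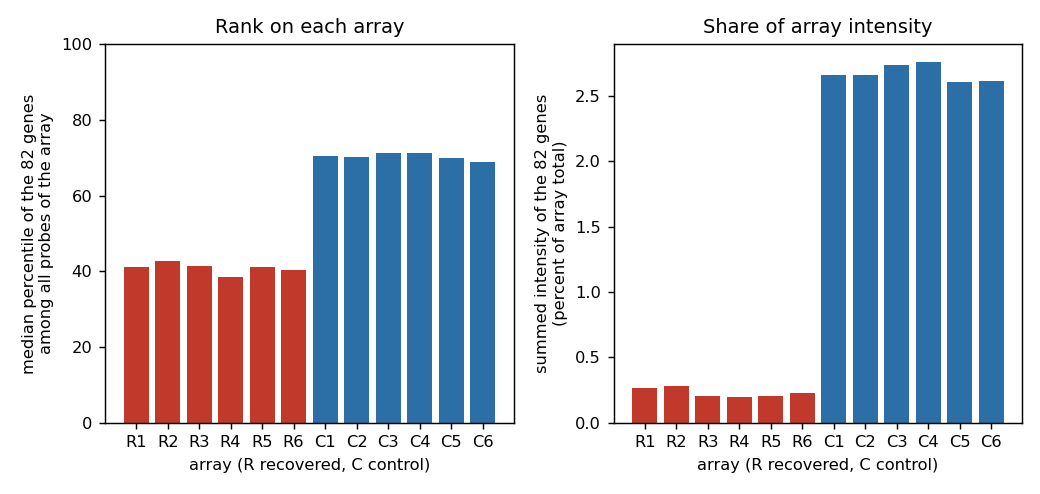
Left, median percentile of the 82 genes among all probes of each array; right, their summed intensity as a percent of the array total. Bars are single arrays, R recovered and C control. Percentiles of 38.5 to 42.8 on recovered arrays stand beside 68.97 to 71.3 on control arrays, and no array of one group reaches the range of the other.

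The brightest of the 82 genes was AT4G35660, for which no role is given here. Its intensity ran from 0.263 to 0.514 with a median of 0.342 on the recovered arrays, against 11.8 to 17.5 with a median of 12.7 on the control arrays. The control arrays stood at different levels, 17.0 and 17.5 on control samples 3 and 4 and 11.8 to 13.0 on the other control samples, and the lowest control array was still 23.0 times the highest recovered array. AT4G18180, a pectin lyase-like protein of a family that cuts the pectin of cell walls, had the lowest ratio of all 82 genes. Its intensity ran from 0.0359 to 0.121 with a median of 0.0633 on the recovered arrays, against 3.70 to 4.87 with a median of 4.15 on the control arrays. The recovered mean was 59.4-fold lower, and the groups were 30.5-fold apart at their nearest arrays. AT2G46300, a member of the late embryogenesis abundant hydroxyproline-rich family, ran from 0.298 to 0.525 with a median of 0.403 on the recovered arrays, against 3.37 to 4.13 with a median of 3.77 on the control arrays. Its recovered mean of 0.401 was the highest of the 82 genes and its ratio was 0.107.

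AT2G31920, with no role given here, ran from 0.00323 to 0.0406 with a median of 0.0244 on the recovered arrays, against 0.865 to 1.10 with a median of 1.01 on the control arrays. Its recovered mean of 0.0223 was the lowest of the 82 genes and lay at a mean percentile of 20.3 among all probes of the recovered arrays. PRA1.B6, a prenylated Rab acceptor protein of vesicle traffic, ran from 0.00674 to 0.1503 with a median of 0.0651 on the recovered arrays, against 1.13 to 1.85 with a median of 1.75 on the control arrays. Recovered samples 3 and 4, at 0.00674 and 0.00756, were far below the other recovered samples, and the lowest control array was 7.53 times the highest recovered one. AT1G73740, a member of the UDP-glycosyltransferase superfamily, which moves sugars onto acceptor molecules, ran from 0.0137 to 0.152 with a median of 0.0929 on the recovered arrays, against 1.29 to 2.34 with a median of 1.99 on the control arrays. Recovered samples 3 and 4 were again lowest, at 0.0137 and 0.0254, and the groups did not overlap. AT3G50270, a member of the HXXXD acyltransferase family, which joins acyl groups to small molecules, ran from 0.0279 to 0.126 with a median of 0.0783 on the recovered arrays, against 1.33 to 1.80 with a median of 1.53 on the control arrays. The recovered mean of AT3G50270 was 20.1-fold lower.

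AT3G44610, an AGC protein kinase, ran from 0.00568 to 0.0948 with a median of 0.0228 on the recovered arrays, against 0.625 to 0.702 with a median of 0.667 on the control arrays. Recovered sample 2 alone gave the highest value, and the next recovered array stood at 0.0263. AT3G02450, an FtsH-like protein related to the membrane proteases of bacteria and plastids, ran from 0.0120 to 0.0820 with a median of 0.0462 on the recovered arrays, against 0.798 to 0.995 with a median of 0.890 on the control arrays. AT1G80450, a VQ motif protein of a family that binds WRKY transcription factors, ran from 0.00792 to 0.0962 with a median of 0.0192 on the recovered arrays, against 0.632 to 0.863 with a median of 0.681 on the control arrays. The recovered arrays of AT1G80450 split into 4 at most 0.0218 and 2 at least 0.0834, all of them below the lowest control value. AT1G03660, with no role given here, ran from 0.0166 to 0.106 with a median of 0.0495 on the recovered arrays, against 0.727 to 1.20 with a median of 1.04 on the control arrays. The recovered means of these 4 genes were 18.3 to 21.1-fold lower.

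Among the other bright genes, AT5G17630, the plastid translocator that exchanges xylulose phosphate for phosphate, ran from 0.0923 to 0.208 with a median of 0.162 on the recovered arrays, against 1.56 to 2.19 with a median of 1.87 on the control arrays. AT5G40030, another AGC protein kinase, ran from 0.0550 to 0.197 with a median of 0.114 on the recovered arrays, against 1.60 to 2.05 with a median of 1.84 on the control arrays. AT5G39980, a pentatricopeptide repeat protein, ran from 0.0558 to 0.182 with a median of 0.0839 on the recovered arrays, against 0.637 to 2.35 with a median of 1.94 on the control arrays. Control samples 3 and 4 of AT5G39980, at 0.637 and 0.680, stood far below the other 4 control samples, at 1.83 to 2.35, yet above every recovered sample. AT5G06930 ran from 0.0964 to 0.189 with a median of 0.153 on the recovered arrays, against 1.64 to 2.24 with a median of 1.78 on the control arrays. AT1G76220 ran from 0.0570 to 0.183 with a median of 0.103 on the recovered arrays, against 1.48 to 1.96 with a median of 1.59 on the control arrays. No role is given here for AT5G06930 and AT1G76220, whose lowest control arrays were 8.66 and 8.11 times their highest recovered arrays.

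**Figure D3:**
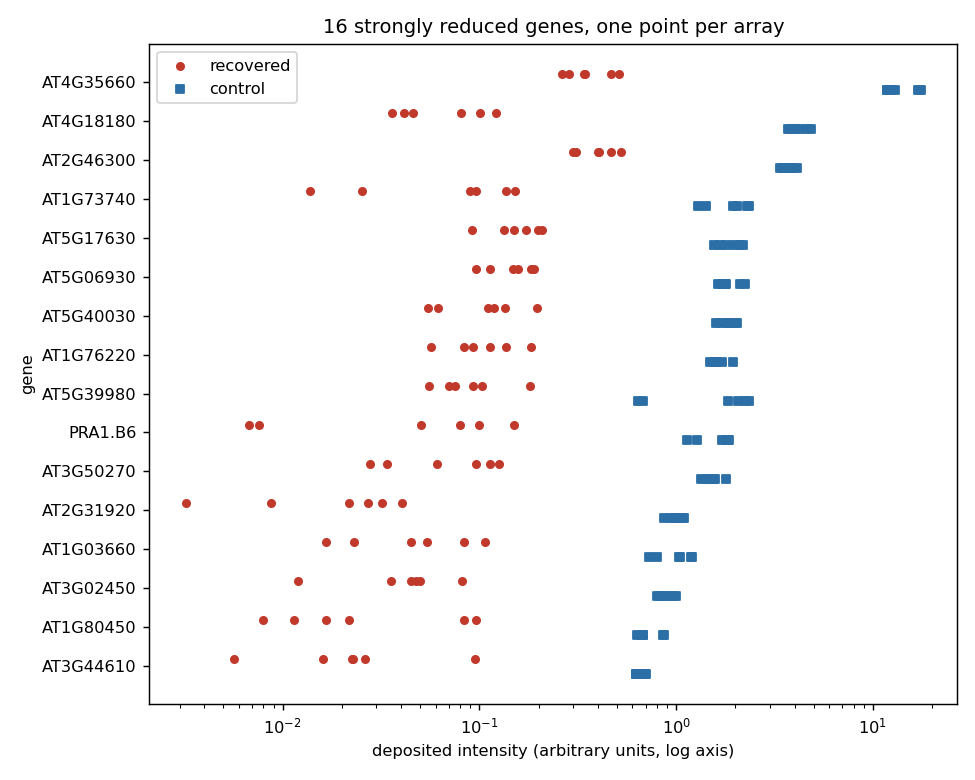
Deposited intensity (log axis, arbitrary units) of the 16 genes with the brightest control means or the lowest ratios, 1 point per array, recovered above control in each row. For all 16 genes every recovered array lies below every control array, as for 66.5% of the 2409 probes above 0 on all arrays. The recovered points of a gene spread more widely on this axis than its control points for most genes.

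Roles were assigned by hand after the genes were seen, and the share of each function among the 314 bright single-gene probes was not counted. Counts by function here and below therefore describe the 82 genes alone. They cover the 42 genes given a role, and the other 40 may hold more of the same families. Each count is thus a minimum. Factors that act on organelle RNA made up 8 of the 42 genes given a role, with ratios from 0.0590 to 0.134. Of these, 6 encode pentatricopeptide repeat proteins, which bind plastid or mitochondrial transcripts and direct their processing. Besides AT5G39980, AT2G17670 averaged 0.0709 ± 0.0346 in recovered and 1.08 ± 0.394 in control plants (SD, n = 6 each, as for all means with ± that follow). AT1G79080 averaged 0.0702 ± 0.0348 in recovered and 0.813 ± 0.0499 in control plants. AT5G02830 had means of 0.0692 ± 0.0339 in recovered and 0.677 ± 0.0679 in control plants. These 3 genes were 9.78 to 15.2-fold lower. AT2G46050 averaged 0.111 ± 0.0498 in recovered and 0.869 ± 0.285 in control plants. AT3G22150 had means of 0.0944 ± 0.0291 in recovered and 0.703 ± 0.0708 in control plants, the highest ratio of the family here. AT1G61990, a mitochondrial transcription termination factor family protein, averaged 0.0912 ± 0.00973 in recovered and 0.880 ± 0.0736 in control plants. In AT3G27550, a protein with the CRM domain that takes part in intron splicing in plastids and mitochondria, the control mean was the lowest of the 8, and it averaged 0.0511 ± 0.0327 in recovered and 0.615 ± 0.0452 in control plants. All 8 had every recovered array below every control array, as did all 82 genes and 66.5% of all 2409 tested probes.

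Enzymes that modify RNA made up another 4. AT3G56330, of the tRNA dimethylguanosine methyltransferase family, averaged 0.0883 ± 0.0413 in recovered and 1.29 ± 0.133 in control plants. AT5G10910, an rRNA methyltransferase of the type called MraW in bacteria, averaged 0.0590 ± 0.0510 in recovered and 0.577 ± 0.0416 in control plants. AT2G19870, of the SpoU type of tRNA and rRNA methyltransferases, averaged 0.129 ± 0.0389 in recovered and 1.08 ± 0.319 in control plants. Their ratios were 0.0684, 0.102 and 0.120 in that order. AT4G21770, of the pseudouridine synthases, which isomerize uridines within RNA, averaged 0.126 ± 0.0502 in recovered and 1.02 ± 0.404 in control plants. Control samples 1 and 2 of AT4G21770 averaged 0.510, against 1.28 over the other control samples, so its ratio depended on which control samples were used. The same held for AT2G19870, at 0.672 on control samples 1 and 2 against 1.28 over the other control samples.

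Proteins of plastid assembly and metabolism accounted for 6 genes, with ratios from 0.0507 to 0.0982. AT1G22700, a tetratricopeptide protein needed to assemble photosystem I, averaged 0.103 ± 0.0752 in recovered and 1.11 ± 0.0533 in control plants. AT5G46390, of the C-terminal processing peptidases, the family that matures the D1 protein of photosystem II, averaged 0.104 ± 0.0513 in recovered and 1.41 ± 0.367 in control plants. AT5G09820, of the plastid fibrillin family, averaged 0.0729 ± 0.0352 in recovered and 0.856 ± 0.102 in control plants. These 3 genes were 10.8 to 13.6-fold lower. AT5G22620, of the phosphoglycerate mutase family, averaged 0.0572 ± 0.0441 in recovered and 0.898 ± 0.117 in control plants. AT2G32640, of the lycopene cyclase family, whose founding members close the rings of carotenoids, averaged 0.0665 ± 0.0342 in recovered and 0.677 ± 0.0709 in control plants. With the FtsH-like AT3G02450, the control means of the 6 genes ran from 0.677 to 1.41.

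Carriers and proteins of membrane traffic made up 4 genes, 2 of which, AT5G17630 and PRA1.B6, are described above. AT2G32040, a folate and biopterin transporter, averaged 0.152 ± 0.0691 in recovered and 1.22 ± 0.0630 in control plants. AT1G67930, a subunit of a Golgi transport complex, averaged 0.0512 ± 0.0268 in recovered and 0.646 ± 0.141 in control plants. Their ratios were 0.125 and 0.0793. In mitochondria, AT5G47890, the B8 subunit of respiratory complex I, averaged 0.0414 ± 0.0565 in recovered and 0.716 ± 0.103 in control plants. AT5G02050, of the mitochondrial glycoprotein family, averaged 0.0908 ± 0.0427 in recovered and 0.985 ± 0.0458 in control plants. Both mitochondrial genes had control means under 1, and they were 17.3-fold and 10.8-fold lower, AT5G47890 first.

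Protein kinases, which add phosphate to other proteins, numbered 4 among the genes given a role. Besides both AGC kinases, AT1G61590, a receptor-like cytoplasmic kinase, averaged 0.0520 ± 0.0394 in recovered and 0.529 ± 0.0778 in control plants. AT1G69910, a receptor-like kinase, averaged 0.0822 ± 0.0490 in recovered and 0.826 ± 0.0888 in control plants. Their ratios of 0.0983 and 0.0995 were the highest of the 4. Regulators of transcription also numbered 4, with AT1G80450 the lowest in ratio. AT5G61470, a C2H2 zinc finger protein, averaged 0.0419 ± 0.0322 in recovered and 0.504 ± 0.137 in control plants. AT4G31060, of the AP2/ERF transcription factors, averaged 0.0690 ± 0.0314 in recovered and 0.755 ± 0.0608 in control plants. TCP15, a TCP transcription factor that acts in cell growth and leaf shape, averaged 0.099996 ± 0.0369 in recovered and 0.671 ± 0.0915 in control plants. TCP15 had the second highest ratio of all 82 genes, at 0.149.

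Protein turnover was represented by 3 genes. AT4G39570, an F-box protein with kelch repeats of the kind that selects targets for ubiquitination, averaged 0.0709 ± 0.0488 in recovered and 1.14 ± 0.119 in control plants. AT2G39100, a RING protein, averaged 0.130 ± 0.0333 in recovered and 1.59 ± 0.0759 in control plants. AT2G03200, of the aspartyl proteases, averaged 0.0758 ± 0.0510 in recovered and 1.01 ± 0.0752 in control plants. All 3 had control means above 1, and they were 12.2 to 16.1-fold lower. Besides AT4G18180, AT1G73740 and AT3G50270, another enzyme, AT2G43760, the large subunit of molybdopterin synthase, which makes the cofactor of nitrate reductase, averaged 0.0968 ± 0.0620 in recovered and 0.761 ± 0.143 in control plants. AT4G16490, an armadillo repeat protein, averaged 0.0993 ± 0.0461 in recovered and 0.934 ± 0.170 in control plants. AT3G51930, a WD40 repeat protein, averaged 0.0716 ± 0.0411 in recovered and 0.530 ± 0.259 in control plants. In AT3G51930 the lowest control array was only 2.04 times the highest recovered array, the narrowest gap of the 82 genes.

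No role is given here for the other 40 genes, of which AT4G35660, AT2G31920, AT1G03660, AT1G76220 and AT5G06930 are described above; only ATATH8 among them carries a name beyond its locus number in the gene table. The remaining genes are given in the order of their ratios, which ran from 0.0565 for ATATH8 to 0.1498 for AT2G25870. ATATH8 averaged 0.0557 ± 0.0378 in recovered and 0.986 ± 0.0888 in control plants. AT3G02690 had means of 0.0885 ± 0.0339 in recovered and 1.56 ± 0.0895 in control plants. AT1G27610 gave means of 0.0800 ± 0.0559 in recovered and 1.32 ± 0.232 in control plants. Of these, AT3G02690 had the widest gap, with its lowest control array 11.4 times its highest recovered array. AT2G36560 averaged 0.0604 ± 0.0291 in recovered and 0.991 ± 0.162 in control plants. AT2G41950 had means of 0.0774 ± 0.0131 in recovered and 1.24 ± 0.0522 in control plants. AT5G62550 gave means of 0.0730 ± 0.0469 in recovered and 1.06 ± 0.0626 in control plants. AT2G41950 was the brightest of the 3 in control plants, at a mean percentile of 40.6 on recovered and 82.1 on control arrays. AT5G11550 averaged 0.0428 ± 0.0193 in recovered and 0.614 ± 0.106 in control plants. AT3G61540 had means of 0.0651 ± 0.0327 in recovered and 0.895 ± 0.0723 in control plants. AT4G05490 gave means of 0.0397 ± 0.0335 in recovered and 0.538 ± 0.0513 in control plants. Among these 3 genes, the recovered arrays of AT4G05490 differed most among themselves, by 8.55-fold between the lowest and the highest. AT3G25680 averaged 0.0908 ± 0.0142 in recovered and 1.21 ± 0.0925 in control plants. AT3G07790 had means of 0.0856 ± 0.0369 in recovered and 1.10 ± 0.0578 in control plants. AT5G43770 gave means of 0.0531 ± 0.0284 in recovered and 0.676 ± 0.0634 in control plants. The nearest arrays of the groups were 6.50-fold apart for AT5G43770 and 9.96-fold apart for AT3G25680.

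AT2G14660 averaged 0.0584 ± 0.0413 in recovered and 0.722 ± 0.0352 in control plants. AT1G77730 had means of 0.0714 ± 0.0231 in recovered and 0.783 ± 0.0664 in control plants. AT4G23110 gave means of 0.0683 ± 0.0534 in recovered and 0.744 ± 0.0522 in control plants. Of these, AT1G77730 had the widest gap, with its lowest control array 7.08 times its highest recovered array. AT1G22850 averaged 0.0806 ± 0.0503 in recovered and 0.831 ± 0.169 in control plants. AT2G29870 had means of 0.135 ± 0.0394 in recovered and 1.38 ± 0.288 in control plants. AT5G63490 gave means of 0.0922 ± 0.0391 in recovered and 0.935 ± 0.342 in control plants. AT2G29870 was the brightest of the 3 in control plants, at a mean percentile of 55.9 on recovered and 83.8 on control arrays. AT5G65250 averaged 0.0755 ± 0.0411 in recovered and 0.762 ± 0.0195 in control plants. AT2G43990 had means of 0.0522 ± 0.0362 in recovered and 0.524 ± 0.0982 in control plants. AT4G21820 gave means of 0.0556 ± 0.0283 in recovered and 0.549 ± 0.0553 in control plants. Among these 3 genes, the recovered arrays of AT2G43990 differed most among themselves, by 52.1-fold between the lowest and the highest. AT5G38750 averaged 0.0799 ± 0.0219 in recovered and 0.756 ± 0.110 in control plants. AT5G19540 had means of 0.117 ± 0.0358 in recovered and 1.08 ± 0.167 in control plants. AT5G40470 gave means of 0.104 ± 0.0424 in recovered and 0.919 ± 0.0116 in control plants. The nearest arrays of the groups were 5.75-fold apart for AT5G38750 and 6.42-fold apart for AT5G19540.

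AT3G54680 averaged 0.0755 ± 0.0523 in recovered and 0.626 ± 0.0512 in control plants. AT2G46850 had means of 0.0794 ± 0.0286 in recovered and 0.656 ± 0.111 in control plants. AT3G09250 gave means of 0.0736 ± 0.0284 in recovered and 0.599 ± 0.101 in control plants. Of these, AT3G09250 had the widest gap, with its lowest control array 5.11 times its highest recovered array. AT4G23080 averaged 0.0815 ± 0.0199 in recovered and 0.642 ± 0.0407 in control plants. AT2G23160 had means of 0.170 ± 0.0655 in recovered and 1.32 ± 0.219 in control plants. AT1G15410 gave means of 0.0778 ± 0.0541 in recovered and 0.604 ± 0.0389 in control plants. AT2G23160 was the brightest of the 3 in control plants, at a mean percentile of 60.9 on recovered and 83.3 on control arrays. AT4G29120 averaged 0.196 ± 0.0352 in recovered and 1.43 ± 0.253 in control plants. AT3G58830 had means of 0.103 ± 0.0378 in recovered and 0.755 ± 0.0743 in control plants. AT5G53930 gave means of 0.106 ± 0.0557 in recovered and 0.772 ± 0.115 in control plants. Among these 3 genes, the recovered arrays of AT5G53930 differed most among themselves, by 4.29-fold between the lowest and the highest. AT5G27560 averaged 0.0726 ± 0.0321 in recovered and 0.520 ± 0.0721 in control plants. AT2G25870 had means of 0.116 ± 0.0345 in recovered and 0.777 ± 0.293 in control plants.

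AT2G25870 was measured by a second probe that names it alone, and the probes disagreed. The probe that met the thresholds ran from 0.0664 to 0.169 with a median of 0.113 on recovered arrays, against 0.404 to 1.05 with a median of 0.880 on control arrays. The other probe ran from 0.268 to 0.406 with a median of 0.305 on recovered arrays, against 0.245 to 0.972 with a median of 0.726 on control arrays, so its groups overlapped. Their ratios of recovered to control mean were 0.1498 and 0.496. No other of the 82 genes had a second single-gene probe.

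In the deposited intensities all 82 genes had every recovered array below every control array, which was also true of 66.5% of the 2409 probes above 0 on all arrays. The lowest control array was at least 2.04 times the highest recovered array, with a median of 5.80, and it was 5 times or more for 50 genes. Fitted with limma on log2 intensities, all 82 were called lower in deposited values at an adjusted p under 0.05, against 75.5% of all 2409 probes. After quantile normalization 81 were called lower, against 31.1% of all probes, and the exception was AT3G51930 (log2 difference -0.85, SE 0.455, adjusted p = 0.115). After median centring 81 were called lower, against 27.8% of all probes, and 78 were called lower in these scalings and in cyclic loess alike, against 22.2% of all probes. A total of 75 were called lower after quantile normalization with consecutive samples of a group averaged first, against 23.6% of all probes, and 79 with the replicate number as a block, against 31.0%. Without 1 sample 78 to 80 were called lower, against 29.1 to 30.9% of all probes, and 72 were called in every setting that tested them, against 18.5%. Since the same contrast chose the genes, these counts support nothing about them.

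The size of the difference depended on the scaling. The median log2 difference of the 82 genes was -3.72 as deposited, -1.69 after quantile normalization, -1.79 after median centring and -1.62 after cyclic loess. Over all 2409 probes it was -1.58, 0.08, 0.35 and -0.07 in the same order. No gene of the 82 changed sign in any of the 4 scalings. All had been chosen for a low deposited ratio, with deposited log2 differences of -2.69 or lower. The kept sign therefore supports nothing about them. The thresholds of 0.5 and 0.15 were still met by 7 of them in quantile-normalized values, namely AT4G18180 (ratio 0.0317), AT4G35660 (0.0334), AT2G31920 (0.0963), AT1G73740 (0.1097), PRA1.B6 (0.1102), AT3G50270 (0.139) and AT5G39980 (0.145). In median-centred values they were met by 4, namely AT4G18180 (ratio 0.0620), AT2G31920 (0.0849), AT4G35660 (0.101) and PRA1.B6 (0.149). These 4 genes thus met the thresholds as deposited and in both normalized sets.

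**Figure D4:**
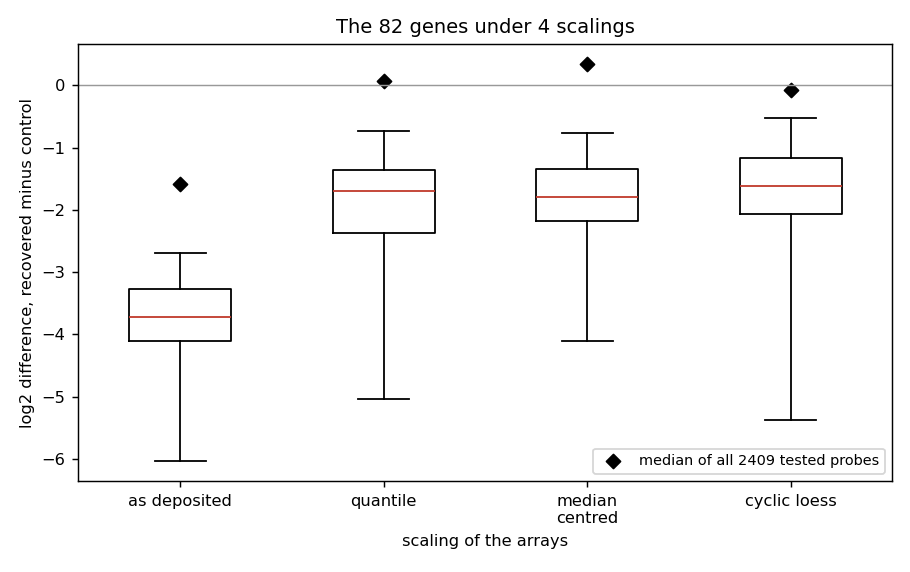
Log2 difference, recovered minus control, of the 82 genes under 4 scalings; boxes span the quartiles, red lines are medians, whiskers reach the lowest and highest gene, and diamonds are medians of all 2409 tested probes. All 82 genes, chosen for a low deposited ratio, lie below 0 in each scaling. Their medians are -3.72 as deposited and -1.62 to -1.79 otherwise. The median of all probes moves from -1.58 as deposited to between -0.07 and 0.35.

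Relative to their means, the 82 genes varied more between recovered arrays than between control arrays. Their median coefficient of variation was 48.8% in recovered and 10.6% in control plants, against 25.6% and 11.9% over the 314 bright single-gene probes. This comparison was not matched for intensity. The 82 genes were chosen for low recovered means, with a median of 0.0776 against 0.224 over the 314 probes. The highest recovered array was 4.25 times the lowest in the median gene, and at least 5 times for 35 genes, whereas the highest control array was 1.34 times the lowest. On recovered samples 3 and 4, which held 564 and 556 zeros against 388 to 416 on the others, the 82 genes averaged 0.745 times the other recovered samples in the median gene, against 0.919 over all 2409 probes. Sample 3 or 4 gave the lowest recovered value for 47 of the 82 genes, and their part in the low values was not tested beyond leaving them out. Without them the median ratio was 0.0900, and 7 genes lay above 0.15, the highest at 0.1699.

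Control samples resembled each other in consecutive pairs. Across the 82 genes, log2 deviations from the mean of a group correlated at 0.879 to 0.939 within the pairs 1 and 2, 3 and 4, and 5 and 6, and at -0.645 to -0.301 between pairs, while in recovered samples they correlated at -0.0982 to -0.0351 within and at -0.442 to 0.00124 between such pairs. Genes are not independent replicates, and these values are descriptions. Deviations from a group mean cancel over the arrays of that group, which pulls their correlations below 0. The negative values are therefore no evidence that pairs oppose each other. The control pairs differed by 2-fold or more for 7 genes. In AT5G39980 pair means were 1.94, 0.658 and 2.29, the widest spread at 3.48-fold. In AT3G51930 they were 0.260, 0.495 and 0.835, in AT4G21770 0.510, 1.20 and 1.36, and in AT2G25870 0.411, 0.880 and 1.04. The others were AT2G17670, AT5G63490 and AT2G46050, at 2.19 to 2.43-fold. No label states what a pair of consecutive samples shares.

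At the edge of the ratio threshold the genes formed no gap. Just inside lay AT3G58830 at 0.1370, AT5G53930 at 0.1372, AT5G27560 at 0.1396, TCP15 at 0.1490 and AT2G25870 at 0.1498. Just outside lay AT3G09490 at 0.1526, AT2G26100 at 0.1528, AT5G19750 at 0.1528, AT3G49740 at 0.1531 and AT1G53050 at 0.1548. At the control minimum, AT5G61470 (0.504), AT5G27560 (0.5200) and AT2G43990 (0.524) lay just inside. AT1G48570 (0.487), AT4G24160 (0.448) and AT5G53920 (0.432) met the ratio and lay just outside.

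The genes were spread over the genome. Of the 81 found in the gene table, chromosome 1 held 14, chromosome 2 held 19, chromosome 3 held 14, chromosome 4 held 11 and chromosome 5 held 23. Of the 314 bright single-gene probes, 313 were found there, namely 68, 61, 62, 67 and 55 in the same order, so chromosome 5 gave the largest share of its bright probes. Only 3 pairs of the 82 genes lay within 5 protein-coding genes of each other: AT4G23080 and AT4G23110, AT4G21770 and AT4G21820, and AT5G39980 and AT5G40030. Gene length had a median of 2074 bases over the 81 genes in the table and 2008 over the bright single-gene probes. A single pair of the 82 genes, AT4G35660 and AT5G06930, had consecutive probe numbers. The 92 other probes with a number next to one of the 82 had a median ratio of 0.288, against 0.348 over all 2409 probes; no source used here says whether probe numbers follow the position on the array.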

How the data were processed

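Total RNA of 6 recovered and 6 control samples was hybridized to arrays with 3439 probes. All deposited values are linear intensities from 0 to 100 in arbitrary units, and no source used here states how the authors corrected or scaled them. The platform annotation names a single gene for 692 probes, several for 870 and none for 1877, and symbols came from the TAIR10.1 gene table, which held 81 of the 82 genes. The genes and lists were chosen with earlier results of these data known. Of 14 keyword lists searched in the symbols and synonyms, 13 held none of the 82 genes, and the list of membrane transport held PRA1.B6; roles were therefore assigned by hand after the genes were seen. Every gene of the set was named, with all arrays summarised for the 10 brightest in control plants and the 10 with the lowest ratio, 16 genes in all.

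Group means are of deposited intensities. For the background counts, the 2409 probes above 0 on all arrays were quantile normalized on the log2 scale and fitted with limma 3.58.1 in R 4.3.3 (lmFit and eBayes, two-sided, Benjamini-Hochberg over all 2409, adjusted p under 0.05), without a block. The fit was tested on simulated data with independent arrays and known shifts added after normalization. That run did not cover the likeness of consecutive control samples or the choice of scaling. Deviations of same-numbered samples of the groups correlated at -0.0106 to 0.0958 over the 2409 probes, so the numbers were not treated as pairs.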

Additional observations from a re-analysis of the deposited data

Results flagged for a closer look

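Each of the 164 groups of 6 arrays (82 genes, recovered and control) was checked for a highest or lowest array far from the others. Such an array was found in 5 groups. Independent, normally distributed arrays would give about 8.2 over all 164 groups. Control arrays resembled each other in consecutive pairs, so that number does not apply to the control groups. None was computed for the recovered groups alone, so the 5 found cannot be set against 8.2. Recovered sample 2 was high for AT3G44610, at 0.0948 against 0.00568 to 0.0263 on the other recovered arrays. It was also high for AT5G39980, at 0.182 against 0.0558 to 0.103, and for AT5G02830, at 0.136 against 0.0437 to 0.0719. Recovered sample 6 was high for AT1G22700, at 0.246 against 0.0385 to 0.109. Control sample 3 was high for AT4G05490, at 0.638 against 0.5001 to 0.544 on the other control arrays. Recovered sample 2 gave the highest recovered value for 33 of the 82 genes.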

How the results depend on the processing

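The thresholds decide how many genes are described: 54 at a ratio of 0.10, 118 at 0.20, 100 at a control minimum of 0.25, 31 at 1, 129 with zeros kept, 88 by group medians, 7 in quantile-normalized and 4 in median-centred values. Leaving out 1 sample gave 81 to 90 genes, and leaving out a pair of consecutive samples 79 to 95. Against 750 of all 2409 probes called lower, deposited values gave 1819. The brighter 50% of probes gave 376 of the 1205 tested. Only 18 of the 82 genes were tested there, and all 18 were called lower. The median log2 difference of the 82 genes was -3.72 as deposited, -1.79 after median centring (the same when combined with the replicate block), -1.62 after cyclic loess, and -0.89 with 0.1 added and zeros kept, which changed the offset and the probes normalized at once. Over the 18 of them in the brighter 50% it was -2.41, where the set of genes differs and each gene's value does not. For all 82 it ran from -1.77 to -1.65 without 1 sample. Leaving out pairs of samples was chosen after seeing the data, and gave -1.79 without control 1 and 2, -1.77 without control 3 and 4, -1.86 without control 5 and 6, and -1.59 without recovered 1 and 2. The replicate block gave 746 (31.0%) of all probes and 79 of the 82 lower, losing AT5G27560 and AT2G25870. It changed no other call among the 82. Without 1 sample, 78 to 80 of the 82 were called, against 29.1 to 30.9% of all probes. AT2G25870 missed the threshold of adjusted p in 19 of its 27 settings, AT5G27560 in 13 and AT2G43990 in 11, and AT3G51930 passed in 2. The cause was not tested. The unknown background limits dim values, and so the size of every ratio here.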
